A study of Mus musculus with 48 samples.

Results

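The chemokine ligands examined here were 34 genes, chosen by symbol from the 47561 genes of the expression table, and all 34 were found. They are 17 CC chemokines (Ccl2 to Ccl28), 15 CXC chemokines (the genes named Cxcl1 to Cxcl17 with Ppbp and Pf4), the XC chemokine Xcl1 and the CX3C chemokine Cx3cl1. The rule uses symbols and no measured value. Chemokines are small secreted proteins that bind G protein coupled receptors on leukocytes and direct the cells along a concentration gradient into tissue. In the injured lung, CXC chemokines with a glutamate-leucine-arginine motif draw neutrophils through CXCR2, and ligands of CCR2 draw monocytes. Others, such as CXCL12, are made by resident cells without injury and hold leukocytes in place, and Cx3cl1 and Cxcl16 encode chemokines that are also anchored in the cell membrane.

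RNA of whole lung was sequenced from 48 adult mice, with 1 library per mouse and 3 mice in each of 16 groups. The groups combine strain (C3H/hen, written C3H here, or C57Bl/6, written C57B), sex, a single intraperitoneal injection (saline or aurothioglucose, ATG, at 25 mg/kg) and 96 h of exposure (room air or hyperoxia, above 95% oxygen). Aurothioglucose is a gold compound that inhibits thioredoxin reductase. The series text speaks of ATG for every mouse, so the saline groups rest on the sample labels, and no source says how mice of a group were housed or whether they were litter mates. C3HM and C3HF stand for male and female C3H mice, C57BM and C57BF for male and female C57B mice, and mice carry the numbers of their labels.

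Values are FPKM (fragments mapped, scaled to transcript length and to the size of the library), so that levels of different genes can be set side by side. Depth cannot be read from these values, counting error is therefore not stated, and precision rests on how far the 3 mice of a group lie apart. Changes are differences of log2(FPKM + 1) from limma across all genes, with standard errors (SE) and p-values adjusted by the Benjamini-Hochberg method, and a gene was called at an adjusted p under 0.05. The added 1 makes the change of a gene of low level look smaller than it is. The sum of FPKM lay between 510933 and 748290 per mouse, and Scgb1a1, a club cell transcript, made up 10.4% to 30.2% of it in room air and 1.20% to 7.17% in hyperoxia. C3HM mice 1 and 3 (saline) held the highest and the lowest of these shares in room air.

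Among the 12 saline mice in hyperoxia, C3HF mouse 33 and C57BM mouse 19 stood apart from the other mice of their groups. Their summed FPKM of 8 neutrophil markers was 6313 and 4904, against 186 and 1487 in the other C3HF mice and 292 and 184 in the other C57BM mice. Beside the results that change without mouse 33 or mouse 19, the values without that mouse are given. In bulk lung tissue, fewer cells of a type and less RNA per cell cannot be told apart.

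Marker lists of other cells moved with hyperoxia in saline mice, and their part in the results on chemokines was not tested. Of 8 neutrophil markers 6 rose and none fell, with sums of 138 to 779 (median 288) in room air and 184 to 6313 (median 889.7) in hyperoxia. Of 8 markers of monocytes and inflammatory macrophages 7 rose (sums 81.1 to 256 and 182 to 1048), and of 8 alveolar macrophage markers 4 rose and 4 fell (sums 202 to 721 and 308 to 1803). All 8 T and NK cell markers fell (sums 55.7 to 158 and 10.8 to 59.0), as did all 6 B cell markers (sums 21.6 to 105 and 14.8 to 31.6) and 4 of 7 dendritic cell markers. Of epithelial lists, 3 of 3 club cell, 4 of 5 alveolar type 2 and 3 of 3 alveolar type 1 markers fell, and 1 alveolar type 2 marker rose. Endothelial markers showed 1 rise among 3, fibroblast markers 1 rise and 1 fall among 3, platelet and megakaryocyte markers 1 fall among 7 tested, heart muscle markers 3 falls among 4, and eosinophil markers 1 fall in the only 1 tested. The eosinophil gene Epx was listed at 0 in all 48 mice.

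In the GENCODE M21 annotation of mm10, the neutrophil attracting CXC genes and the platelet gene Pf4 lie in a run on the plus strand of chromosome 5: Cxcl5 (chr5:90759360-90761624), Ppbp (chr5:90768518-90770063), Pf4 (chr5:90772435-90773383), Cxcl3 (chr5:90786103-90789600), Cxcl15 (chr5:90794534-90803067), Cxcl1 (chr5:90891241-90893115) and Cxcl2 (chr5:90903871-90905938). The CCR2 ligands Ccl2 (chr11:82035571-82037453) and Ccl7 (chr11:82045712-82047525) are neighbours on chromosome 11. All 34 members are annotated as protein coding except Cxcl11, a polymorphic pseudogene in the reference strain. A promoter (250 bases before the start) was present for 24 members in the RefSeq promoter table of GRCm38.p6, the assembly mm10. Those of Ccl2, Ccl4, Ccl5, Ccl7, Ccl11, Ccl24, Cxcl5, Cxcl11, Cxcl16 and Cxcl17 were not analysed here.

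The last 120 bases before the start are shown for 3 neighbouring CXC genes that rose together in hyperoxia (Cxcl1, Cxcl2 and Cxcl3), for Cxcl15, which lies between Cxcl3 and Cxcl1 and fell, and for Ccl20, Cxcl10 and Cxcl12, whose values are described further on. They are written 5′ to 3′ on the strand of the gene, and capitals mark letters that match the NF-kappaB consensus on either strand.
Cxcl1, chr5:90891125-90891244 (+ strand): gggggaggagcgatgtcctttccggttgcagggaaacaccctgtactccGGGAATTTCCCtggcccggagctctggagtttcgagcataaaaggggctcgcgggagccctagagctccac
Cxcl2, chr5:90903779-90903898 (+ strand): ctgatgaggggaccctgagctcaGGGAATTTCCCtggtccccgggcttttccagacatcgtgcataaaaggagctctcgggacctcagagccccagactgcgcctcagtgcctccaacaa
Cxcl3, chr5:90785981-90786100 (+ strand): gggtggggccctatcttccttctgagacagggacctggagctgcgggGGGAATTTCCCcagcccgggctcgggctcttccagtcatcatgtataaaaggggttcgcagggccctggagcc
Cxcl15, chr5:90794414-90794533 (+ strand): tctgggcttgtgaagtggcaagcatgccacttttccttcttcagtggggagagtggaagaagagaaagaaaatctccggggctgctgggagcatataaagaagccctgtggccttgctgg
Ccl20, chr1:83116646-83116765 (+ strand): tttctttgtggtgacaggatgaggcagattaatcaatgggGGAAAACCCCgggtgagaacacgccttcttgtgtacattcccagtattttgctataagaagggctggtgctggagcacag
Cxcl10, chr5:92348890-92349009 (- strand): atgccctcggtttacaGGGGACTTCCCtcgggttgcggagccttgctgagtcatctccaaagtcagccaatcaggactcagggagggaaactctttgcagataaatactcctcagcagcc
Cxcl12, chr6:117168415-117168534 (+ strand): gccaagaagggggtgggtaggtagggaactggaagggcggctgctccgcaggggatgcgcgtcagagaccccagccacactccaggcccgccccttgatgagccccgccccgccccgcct

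Cxcl1, Cxcl2 and Cxcl3 shared the same match, GGGAATTTCC, which began 71, 97 and 73 bases before the start, and a match on the other strand begins 1 base further on. Ccl20 held a match on the opposite strand, 80 to 71 bases before the start. Cxcl10 held a pair of overlapping matches in the bases shown and 1 more that began 159 bases before the start. Within 250 bases of the start, 6 of the 24 members held a match (the 5 named and Ccl9), as did 2382 of all 32851 promoters (7.25%). None was found for Ccl3, Ccl6, Ccl8, Ccl12, Ccl17, Cxcl13 and Cxcl14, which also rose in hyperoxia. The interferon-stimulated response element (consensus, both strands) was found in Cxcl10, Cxcl14 and Ccl19 (3 of 24) and in 978 of all promoters (2.98%). No match to either was found in the bases shown of Cxcl15 and Cxcl12. A match describes letters only, and binding was not measured.

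In room air, the members spanned more than 3 orders of magnitude in level. In the 12 saline mice in room air, Cxcl15, an airway chemokine also called lungkine, had 676 to 1403 (median 1067) FPKM and was the most abundant member. Ccl6, a macrophage chemokine, had 73.4 to 392 (median 188) FPKM, and its range lay below that of Cxcl15 in full. The range of Ccl6 overlapped that of Cxcl14, and so did those of each following pair of neighbours, with medians of 68.7 for Cxcl14, 64.3 for Cxcl12, 57.9 for Ccl5, 44.2 for Cxcl16, 35.7 for Cxcl17 and 35.2 for Pf4. The chemokines that reach high levels in inflammation were low at this stage, with medians of 1.66 FPKM for Ccl2, 1.08 for Cxcl1, 0.792 for Cxcl5, 0.348 for Ccl20, 0.257 for Cxcl2 and 0.223 for Cxcl3.

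Of the 34 members, 4 stayed under the filter on low values (at least 1 FPKM in at least 3 of the mice fitted) in the comparisons of saline mice. The CXCR3 ligand Cxcl9 was at 1 FPKM or more in 4 of 48 mice, with a highest value of 7.78 in C57BM mouse 14 (saline, room air). Cxcl11 was listed at 0 in 35 mice and reached at most 0.639 FPKM, the lymphoid chemokine Ccl19 was at 0 in 34 mice and reached 1.11, and the mucosal chemokine Ccl28 was at 0 in 12 mice and reached 1.03. Of the 30-base sequences of Ccl19 and Cxcl11, 59.2% and 42.3% also occur in other annotated transcripts, and their reads may be split with those transcripts. The same share was 18.6% for Cxcl16, 14.4% for Xcl1, 7.79% for Cxcl2, 5.61% for Cxcl3 and 4.52% for Cxcl10, whose reads may be split in part as well. How far this moves the levels was not measured.

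Hyperoxia against room air was compared in the 24 saline mice, 12 in each air, to see which ligands answered to oxygen alone. Of 30 members tested, 20 rose and 6 fell, where 60.1% of all 16321 genes tested were called (31.8% higher and 28.3% lower). Unadjusted, 26 members and 63.8% of genes had a p under 0.05. The median change of the members was 1.57 on the log2 scale, against 0.01 over all genes. The rises ran from 0.89 to 4.55 and were led by ligands of CXCR2 and CCR2. The falls ran from -1.56 to -0.47 and included Cxcl15, the most abundant member in room air.

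Of the 6 neutrophil attracting CXC members (median change 2.50), Cxcl1, Cxcl2, Cxcl3 and Cxcl5 rose and Cxcl15 and Ppbp fell. Cxcl1 (KC), a CXCR2 ligand, lay from 0.169 to 3.05 FPKM (median 1.08) in room air. In hyperoxia it had 5.88, 3.71 and 7.31 FPKM in C3HM, 30.5, 25.5 and 693 in C3HF, 501, 3.20 and 2.79 in C57BM and 183, 77.6 and 327 in C57BF. Only C57BM mouse 21, at 2.79, lay within the range of room air, while values in hyperoxia spread over more than 2 orders of magnitude. Cxcl1 rose by 4.09 (SE 0.66, adjusted p = 2.27e-05).

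Cxcl5 (LIX), which is made in large part by epithelium, had 0.113 to 1.79 (median 0.792) FPKM in room air and 2.80 to 79.8 (median 12.9) in hyperoxia, without overlap. It rose by 2.93 (SE 0.45, adjusted p = 1.18e-05). Cxcl2 (MIP-2) had 0 to 0.641 (median 0.257) FPKM in room air and 0 to 166 (median 2.88) in hyperoxia, and its neighbour Cxcl3 had 0 to 0.954 (median 0.223) and 0.408 to 65.2 (median 1.81). Each of these CXCR2 ligands was within the range of room air in 3 of the 12 mice in hyperoxia. Cxcl2 rose by 2.76 (SE 0.66, adjusted p = 0.00121), and Cxcl3 by 2.24 (SE 0.59, adjusted p = 0.00269). Ppbp, a platelet chemokine precursor, fell by 1.04 on the log2 scale (adjusted p = 8.76e-05), and Pf4, platelet factor 4, did not pass the test (0.35, SE 0.21, adjusted p = 0.167).

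All 3 CCR2 ligands, which draw monocytes, rose (median change 3.89). Ccl2 (MCP-1) had 0.256 to 5.08 (median 1.66) FPKM in room air. In hyperoxia it had 3.09, 6.23 and 4.94 FPKM in C3HM, 31.6, 28.7 and 699.8 in C3HF, 989, 24.1 and 15.1 in C57BM and 354, 238 and 559 in C57BF. The C3HM mice were lowest, 2 of them within the range of room air, and mice 19 and 33 were highest. The rise of 4.55 (SE 0.57, adjusted p = 1.12e-06) was the largest of any member and a factor of 23.4 on the scale of FPKM + 1.

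Ccl7 (MCP-3) had 0.524 to 2.88 (median 1.12) FPKM in room air and 1.96 to 371 (median 23.9) in hyperoxia, and 2 C3HM mice in hyperoxia lay within the range of room air. It rose by 3.89 (SE 0.44, adjusted p = 2.64e-07). Ccl12 (MCP-5) had 0 to 4.29 (median 2.32) and 1.03 to 121 (median 12.4) FPKM, with 3 mice in hyperoxia inside the range of room air, and rose by 2.68 (SE 0.45, adjusted p = 3.91e-05).

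Among the other inflammatory CC chemokines, 5 of 6 rose and Ccl5 fell (median change 1.41). Ccl3 (MIP-1alpha) had 0.685 to 2.89 (median 2.00) FPKM in room air and 2.39 to 100.1 (median 9.59) in hyperoxia, with 2 C57BM mice in hyperoxia inside the range of room air, and rose by 2.08 (SE 0.38, adjusted p = 9.03e-05). Ccl4, Ccl6, Ccl8 and Ccl9 rose by 1.06, 1.22, 1.60 and 1.78 on the log2 scale. The call of Ccl4 (MIP-1beta) was lost without C57BF mouse 45, at an adjusted p of 0.0547. Ccl5 (RANTES), which T and NK cells make in quantity, had 37.1 to 82.1 (median 57.9) FPKM in room air and 5.34 to 36.9 (median 21.0) in hyperoxia. The ranges did not overlap, and Ccl5 fell by 1.56 (adjusted p = 5.01e-07). Over the same mice the summed T and NK cell markers lay at 55.7 to 158 FPKM in room air and 10.8 to 59.0 in hyperoxia, and their part in the fall of Ccl5 was not tested.

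Of the CCR3 ligands, which act on eosinophils, Ccl11 (eotaxin-1) rose by 1.82 on the log2 scale and Ccl24 (eotaxin-2) did not pass (0.57, SE 0.31, adjusted p = 0.118). Of the CCR4 ligands, which act on T cells, Ccl17 rose by 1.86 and Ccl22 did not pass (0.39, SE 0.30, adjusted p = 0.271). Cxcl10, the only CXCR3 ligand above the filter, rose by 1.05. Its receptor Cxcr3 was listed at 0 in all 48 mice.

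Of 5 lymphoid and homing members tested 2 rose and 2 fell (median change -0.29). Ccl20, the ligand of CCR6 and a product of stimulated epithelium, had 0 to 2.14 (median 0.348) FPKM in room air and 2.84 to 25.2 (median 8.50) in hyperoxia. The ranges did not overlap, and Ccl20 rose by 2.71 (SE 0.22, adjusted p = 2.52e-09). Cxcl13, the B cell chemokine, rose by 1.57, while Cxcl12 and Xcl1 fell by 0.68 and 0.65. Xcl1, a product of T and NK cells, had a median of 1.52 FPKM in room air and 0.792 in hyperoxia, and its call was lost without C3HM mouse 9 (adjusted p = 0.0513). Ccl25, a thymic and gut chemokine, did not pass (-0.29, SE 0.17, adjusted p = 0.146).

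Of the epithelial and membrane bound members, Cxcl14, Cxcl16 and Cxcl17 rose and Cx3cl1 fell (median change 1.23). Cxcl17, a mucosal chemokine, had 9.01 to 69.2 (median 35.7) FPKM in room air and 75.7 to 203 (median 132) in hyperoxia, without overlap, and rose by 2.03 (SE 0.26, adjusted p = 1.34e-06). Cxcl16, the ligand of CXCR6, had 32.9 to 53.4 (median 44.2) and 58.9 to 104 (median 79.8) FPKM, also without overlap, and rose by 0.89. Cxcl14 rose by 1.57, and Cx3cl1 (fractalkine) fell by 0.47.

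**Figure D1:**
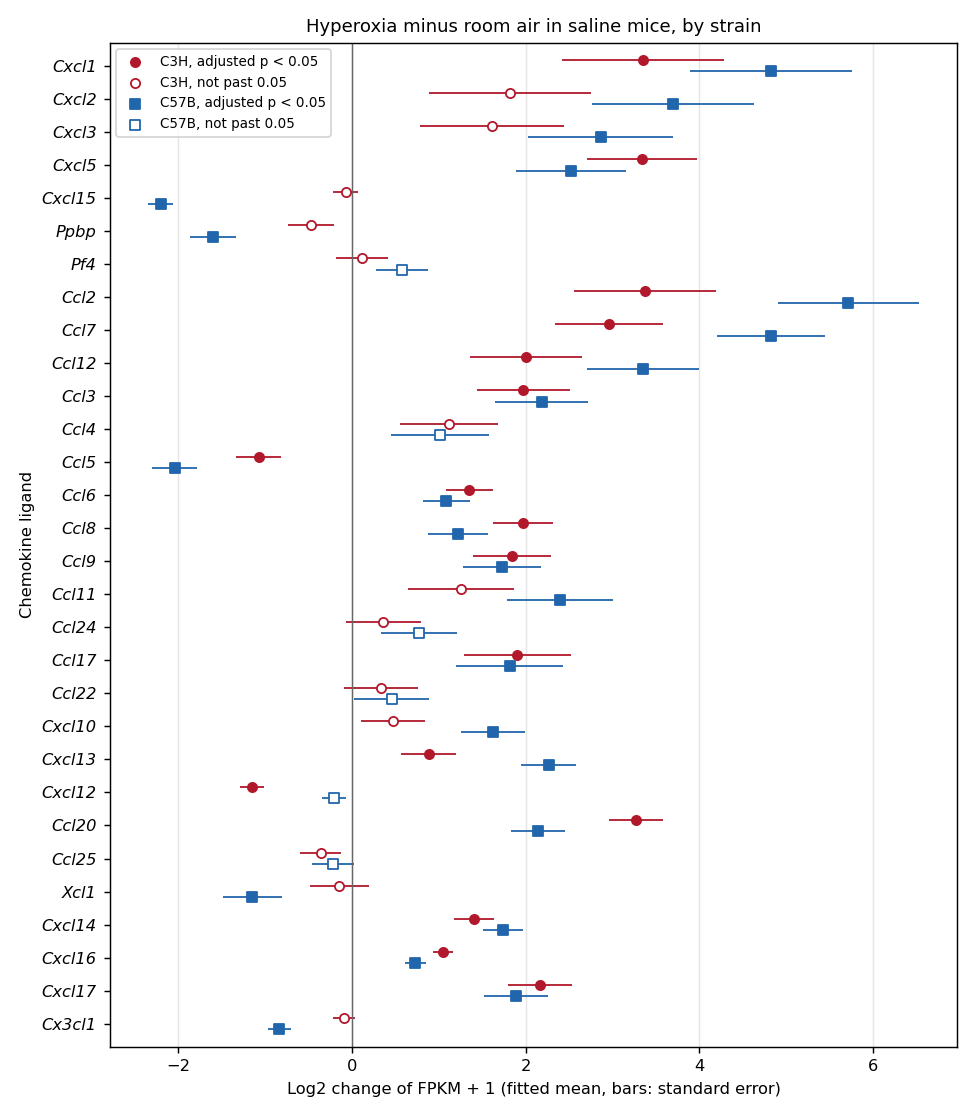
Change of each of 30 chemokine ligands in hyperoxia against room air in saline mice, as the difference of log2(FPKM + 1) with its standard error, for C3H (red circles) and C57B (blue squares), 6 mice in each air and strain. Filled marks passed an adjusted p of 0.05. Ccl2 reached 5.72 in C57B and 3.37 in C3H, and Cxcl15 stands far left in C57B alone (-2.21) with -0.07 in C3H.

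The inflammatory ligands differed widely between mice given the same exposure. Between the highest and the lowest of the 12 saline mice in hyperoxia, FPKM differed by a factor of 319.9 for Ccl2, 249 for Cxcl1, 189 for Ccl7, 159.9 for Cxcl3 and 117 for Ccl12. The factor was 1.77 for Cxcl16, 2.07 for Cx3cl1, 2.19 for Cxcl12 and 2.68 for Cxcl17. The residual standard deviation of the fit had a median of 0.70 over the members on the log2 scale, against 0.28 over all genes tested. C3HF mouse 33 was the highest of the 12 mice for 14 of 30 members and among the highest 3 for 24, whereas it was highest for 10.1% and among the highest 3 for 24.5% of 15046 genes. C57BM mouse 19 was among the highest 3 for 16 members and for 20.3% of the genes. Among the lowest 3 were the C3HM mice for 12, 12 and 15 members and C57BM mouse 20 for 13. The share of all genes for which each mouse was among the lowest 3 was not computed.

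Among the 12 saline mice in hyperoxia, the 5 with the highest Ccl2, Ccl7 and Cxcl1 (19, 33, 43, 44 and 45) also had the 5 highest sums of neutrophil markers. In saline mice in hyperoxia the marker sums were 195, 193 and 228 FPKM in C3HM, 186, 1487 and 6313 in C3HF, 4904, 292 and 184 in C57BM, and 4023, 2172 and 4162 in C57BF. In C57BM mice 16, 17 and 18, given ATG in room air, the sums were 1578, 1822 and 3629 FPKM, with Ccl2 at 1.71, 2.50 and 1.76. The part of the neutrophil markers in the spread of the ligands was not tested. Without mouse 33 the numbers of members that rose and fell over both strains stayed at 20 and 6, as they did without mouse 19.

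**Figure D2:**
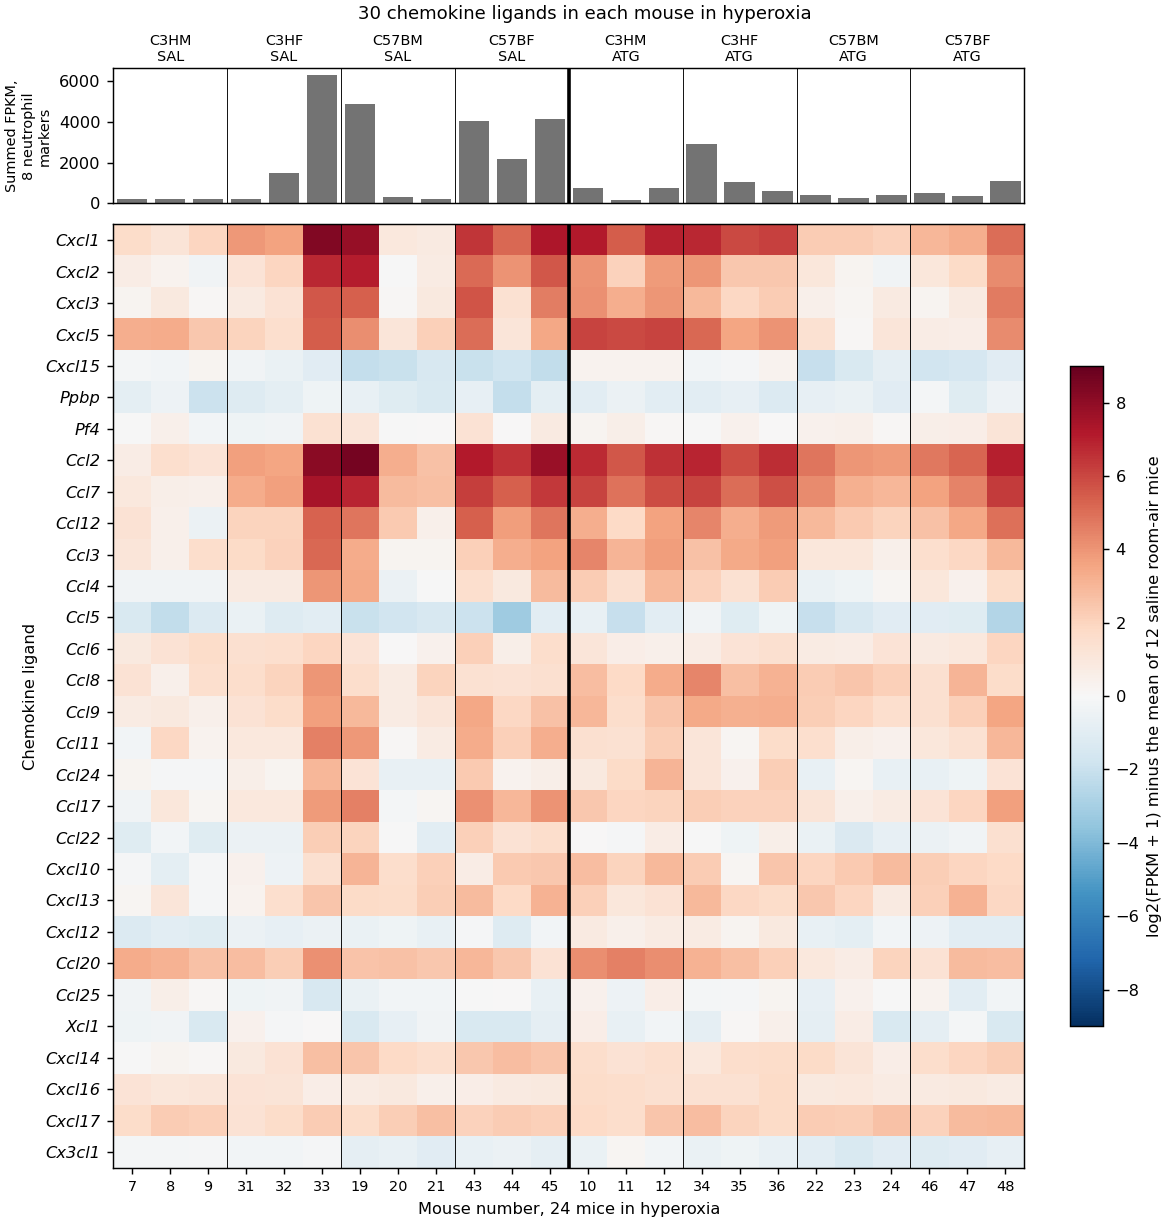
Each of 30 chemokine ligands in the 24 mice in hyperoxia, as log2(FPKM + 1) minus the mean of the 12 saline mice in room air, with red above and blue below that mean. The bars on top give the summed FPKM of 8 neutrophil markers, from 163 to 6313, and mice 33 (C3HF) and 19 (C57BM) carry the highest bars (6313 and 4904) and much of the deepest red in the inflammatory ligands.

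Hyperoxia was next compared within each strain. In C3H mice 15 members rose and 2 fell, where 37.8% of all 16321 genes tested were called (25.3% higher and 12.5% lower). In C57B mice 19 rose and 5 fell, where 55.5% of all 16321 genes tested were called (25.5% higher and 30.0% lower). A p under 0.05 before adjustment was found for 17 members and 46.4% of genes in C3H, and 24 members and 59.9% in C57B. Over all genes called in C3H, 4130 of 6169 were higher as deposited and 3063 of 6031 after quantile normalization. The median change of the members was 1.30 in C3H and 1.67 in C57B, against 0.10 and -0.06 over all genes. The members' median was 0.90 in C3H without mouse 33 and 1.29 in C57B without mouse 19. Without mouse 33 the members called in C3H were 14 (34.4% of all genes), and without mouse 19 they were 19 (39.9%). Without C3HM mice 1 and 3, which lowers the number of mice in the C3H room air groups, Ccl3, Ccl9, Ccl12, Ccl17 and Cxcl13 missed the threshold in C3H (adjusted p = 0.0526 to 0.130), and Xcl1 missed it over both strains (adjusted p = 0.0600). The calls lost in C3H when single mice were left out were those of Ccl12 (mice 3 and 33, adjusted p up to 0.0605), Ccl17 (mice 3, 8 and 33, up to 0.0675) and Cxcl13 (7 mice, up to 0.109).

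The test of the difference itself, C3H minus C57B in the change with hyperoxia, passed for 4 members, 2 higher and 2 lower, where 11.5% of all 16321 genes tested were called (8.71% higher and 2.81% lower). Before adjustment, 10 members and 28.0% of genes stood under 0.05. The median difference was -0.13 over the members and 0.15 over all genes, and scaling moved the latter to -0.01 (quantile) or 0.00 (median ratio) while 2 and 2 members were called again. Leaving out 1 mouse turned the sign of the members' median, which was 0.22 without mouse 19 and -0.50 without mouse 33. Of the genes called in this comparison, 1422 of 1880 were higher as deposited and 862 of 1755 after quantile normalization. For the inflammatory ligands the strains did not differ past the threshold, for example Ccl2 (-2.34, SE 1.15, adjusted p = 0.189) and Cxcl1 (-1.46, SE 1.32, adjusted p = 0.499). Without mouse 33, Ccl2 and Ccl7 passed as well, at differences of -3.09 and -2.52 (adjusted p = 0.0413 and 0.0213), so that 6 members and 14.4% of all genes were called.

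Cxcl15 fell in C57B mice, and the strains differed in this change. In C57B it had 1309.6, 1203 and 1403 FPKM in males and 1085, 1201 and 1054 in females in room air, and 226, 249 and 369 and 249, 284 and 209.8 in hyperoxia. In C3H it had 676 to 1079.5 FPKM in room air, and 873, 864 and 1216 in males and 812, 672 and 493 in females in hyperoxia. All 6 C57B mice in hyperoxia lay below every C57B mouse in room air, whereas the ranges of C3H overlapped. The change was -2.21 in C57B (adjusted p = 2.19e-10) and -0.07 in C3H (adjusted p = 0.722), and the difference was 2.13 (SE 0.20, adjusted p = 2.73e-06). All 3 club cell markers, too, differed in this test, and their sums were 27212 to 42119.6 FPKM in C3H and 6935 to 17436 in C57B in hyperoxia. Their part in the result on Cxcl15 was not tested.

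Cxcl12 (SDF-1), the ligand of CXCR4 and of the scavenging receptor ACKR3, showed the opposite pattern. In C3H it had 77.1, 94.3 and 87.7 FPKM in males and 77.7, 92.0 and 71.9 in females in room air, and 28.0, 33.3 and 31.4 and 44.9, 40.0 and 46.8 in hyperoxia, without overlap. In C57B the 6 mice had 44.6 to 56.7 FPKM in room air and 29.0 to 61.2 in hyperoxia, which overlap. Cxcl12 fell by 1.15 in C3H (adjusted p = 2.14e-06), its change in C57B was -0.21 (adjusted p = 0.202), and the difference was -0.95 (SE 0.19, adjusted p = 0.00423). Ackr3 rose in both strains and less in C3H (1.29 in C3H and 2.29 in C57B, adjusted p of the difference = 0.0166).

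Cx3cl1 had 11.1 to 19.6 FPKM in C57B in room air and 6.38 to 9.47 in hyperoxia, without overlap, and 7.72 to 19.1 and 11.4 to 13.2 in C3H, with overlap. The changes were -0.84 in C57B and -0.09 in C3H, and the difference was 0.75 (SE 0.18, adjusted p = 0.0138). Cxcl13 had 8.97 to 25.9 FPKM in C57B and 1.92 to 16.7 in C3H in hyperoxia, where the ranges overlap, and rose by 2.27 and 0.88 over room air. Its difference of -1.38 (SE 0.45, adjusted p = 0.0495) lay at the threshold and was lost without any of 18 of the 24 mice (adjusted p up to 0.0910). Without C3HM mice 1 and 3 the members called were 2, Cxcl15 and Cxcl12, with adjusted p = 0.0616 for Cx3cl1 and 0.156 for Cxcl13.

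**Figure D3:**
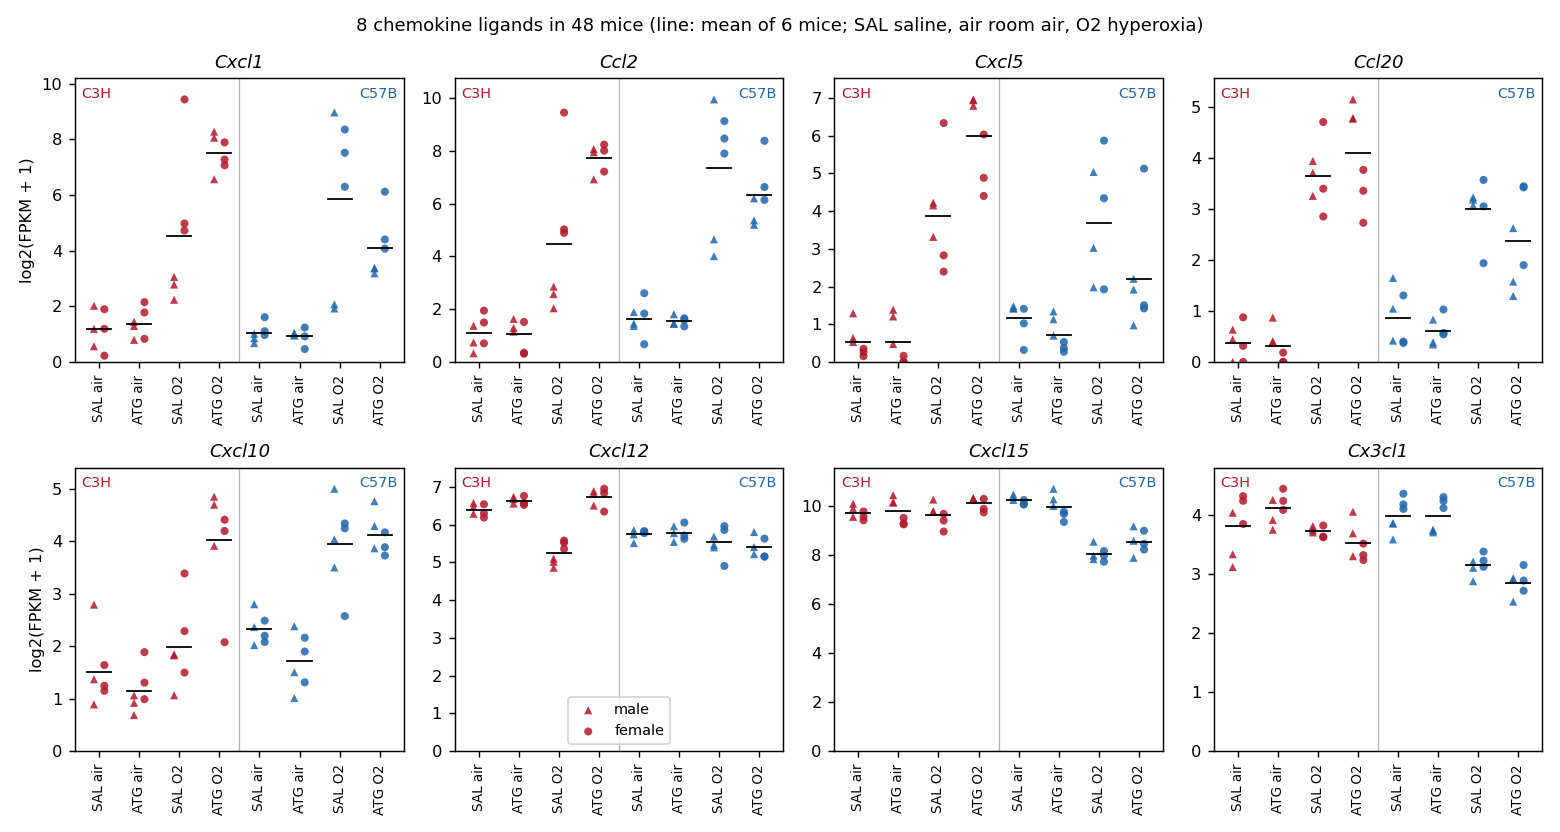
Log2(FPKM + 1) of 8 chemokine ligands in all 48 mice, with 6 mice in each column, triangles for males, circles for females and a line at the mean. Cxcl12 drops in saline C3H mice in hyperoxia (28.0 to 46.8 FPKM) and not in ATG treated ones (80.3 to 123), Cxcl15 drops in C57B mice in hyperoxia, and Cxcl1 and Ccl2 spread over several log2 units within a column.

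Within hyperoxia, the saline strains were compared directly, C3H minus C57B. Of 30 members 3 were higher and 7 lower in C3H, where 27.2% of all 16321 genes tested were called (16.1% higher and 11.1% lower). At an unadjusted p under 0.05 stood 14 members and 38.0% of genes. The median difference was -0.36 over the members (-0.20 without mouse 19 and -0.71 without mouse 33) and 0.05 over all genes, and over all genes called, 2632 of 4441 were higher as deposited and 2269 of 4713 after median ratio scaling. The CCR2 ligands were all lower in C3H, with Ccl2 at -2.88 (SE 0.81, adjusted p = 0.0119), Ccl7 at -2.33 (SE 0.62, adjusted p = 0.00839) and Ccl12 at -1.85 (SE 0.64, adjusted p = 0.0370). Cxcl10 had 2.54, 1.09 and 2.59 FPKM in C3HM, 3.88, 1.82 and 9.44 in C3HF, 30.9, 10.3 and 15.4 in C57BM and 4.95, 17.9 and 19.2 in C57BF. Only mouse 33 exceeded the lowest C57B mouse, and the difference was -1.96 (SE 0.37, adjusted p = 0.000508).

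Cxcl14 was lower in C3H at -1.38 (SE 0.23, adjusted p = 0.000187), Cxcl13 at -1.32 (SE 0.32, adjusted p = 0.00390) and Ccl22 at -1.23 (SE 0.43, adjusted p = 0.0382). Higher in C3H were Cxcl15 (1.60, SE 0.14, adjusted p = 6.1e-08), Cx3cl1 (0.57, SE 0.13, adjusted p = 0.00267) and Cxcl16 (0.32, SE 0.12, adjusted p = 0.0459). The calls of Ccl12, Ccl22 and Cxcl16 were lost without any of 8, 7 and 17 mice, with adjusted p up to 0.120, 0.122 and 0.126. Without mouse 19, 2 members were higher and 5 lower, where 23.1% of all genes were called. Without mouse 33, in turn, 12 members were lower and 3 higher, where 29.7% of all genes were called, and Ccl11, Ccl17, Cxcl2, Cxcl3 and Pf4 were the added ones. Of 8 neutrophil markers 2 were lower in C3H in this comparison, with sums of 186 to 6313 (median 211) in C3H and 184 to 4904 (median 3098) in C57B. Higher in C3H were 5 of 8 T and NK cell markers (sums 36.1 to 59.0 against 10.8 to 28.4), 3 of 3 club cell, 3 of 7 dendritic cell, 2 of 3 alveolar type 1, and 1 each of the alveolar type 2, endothelial, fibroblast, eosinophil and monocyte markers. Alveolar macrophage markers were higher for 3 of 8 and lower for 2 (sums 308 to 729 against 766 to 1803), and the part of all these lists was not tested.

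Sex was examined by its interaction with hyperoxia, male minus female. No member passed in limma, where 0.0368% of all 16321 genes tested were called (0.0306% higher and 0.00613% lower). Unadjusted, 13 members and 18.2% of genes had a p under 0.05, and the median was -0.91 over the members and 0.14 over all genes. Among saline mice in hyperoxia, 5 of 6 males were low for Ccl2 (3.09 to 24.1 FPKM) and C57BM mouse 19 stood at 989. Females had 28.7 to 699.8 FPKM of Ccl2. The interaction was -2.78 (SE 1.15, adjusted p = 0.224) for Ccl2, -3.27 (SE 1.32, adjusted p = 0.218) for Cxcl1, and -2.65 (SE 0.88, adjusted p = 0.175) for Ccl7. Without mouse 19, 9 members passed, all with a smaller rise in males, where 6.45% of all genes were called. They were Cxcl1 (-4.43), Cxcl2 (-3.92), Ccl2 (-3.72), Ccl7 (-3.33), Ccl12 (-3.11), Ccl17 (-2.37), Ccl3 (-2.30), Ccl4 (-2.29) and Cxcl14 (-1.18). Mouse 19 was the only one of 24 whose absence gave more than 1 call, and without C3HM mouse 2 there was 1.

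In saline mice in room air, where the strains were compared without exposure, 27 members passed the filter, and Cxcl2, Cxcl3 and Ccl24 joined the 4 low members outside it. Of the 27, 1 was higher and 6 were lower in C3H, where 11.8% of all 15546 genes tested were called (3.92% higher and 7.87% lower). A p under 0.05 before adjustment was found for 12 members and 26.3% of genes. Over all genes called, 609 of 1832 were higher as deposited and 974 of 1904 after quantile normalization, and the median difference of the members was -0.46 against -0.10 over all genes. The CCR4 ligands were both lower. Ccl17 had 9.42, 5.27 and 3.22 FPKM in C3HM and 7.00, 6.02 and 9.53 in C3HF, against 24.6, 13.3 and 24.8 in C57BM and 22.9, 25.2 and 20.3 in C57BF, without overlap. Its difference was -1.60 (SE 0.22, adjusted p = 0.000576). Ccl22, also on chromosome 8, had 2.21 to 3.82 FPKM in C3H and 5.60 to 8.72 in C57B, without overlap, with a difference of -1.11 (SE 0.14, adjusted p = 0.000282).

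Cxcl14 had 35.2 to 67.6 FPKM in C3H and 69.8 to 157 in C57B and was lower in C3H at -1.05 (SE 0.15, adjusted p = 0.000801), with ranges that did not overlap. Cxcl12 was higher in C3H, with 71.9 to 94.3 FPKM against 44.6 to 56.7 and a difference of 0.64 (SE 0.10, adjusted p = 0.000967). Lower in C3H were also Ppbp (-0.93, SE 0.19, adjusted p = 0.00662), Ccl4 (-0.67, SE 0.16, adjusted p = 0.0180) and Cxcl15 (-0.53, SE 0.11, adjusted p = 0.00762). After quantile normalization Ccl4 and Cxcl15 missed the threshold (adjusted p = 0.111 and 0.0551). Between the sexes in room air no member passed in limma, where 0.669% of all 15546 genes tested were called (0.238% higher and 0.431% lower), male against female. Before adjustment, 6 members and 23.3% of genes stood under 0.05. Of the genes called in this comparison, 37 of 104 were higher as deposited and 53 of 96 after quantile normalization, with medians of -0.01 over the members and -0.12 over all genes. Without C3HM mouse 2, 3 members passed between the sexes, and for the strains the members called went from 7 to 10. The share of all genes called without mouse 2 was not recorded. Of 8 neutrophil markers, 4 were lower in C3H in room air, and of 6 B cell markers 5. Lower in C3H were also 3 of 5 alveolar type 2, 3 of 8 T and NK cell and 1 of 7 dendritic cell markers. Higher were 2 of 3 alveolar type 1 and 2 of 8 monocyte and inflammatory macrophage markers. Alveolar macrophage markers were higher for 2 of 8 and lower for 1. The part of these lists was not tested.

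Aurothioglucose was compared with saline in the 24 mice in room air. No member passed in limma of 28 tested, where 0.0185% of all 16228 genes tested were called (0.0123% higher and 0.00616% lower). At an unadjusted p under 0.05 stood 5 members and 6.64% of genes, and the median was -0.05 against 0.01 over all genes. The macrophage chemokine Ccl6 had the smallest p, with 73.4 to 392 (median 188) FPKM after saline and 167 to 473 (median 338) after ATG, ranges that overlap, and a difference of 0.67 ± 0.16 (SE) with an unadjusted p of 0.000594 and an adjusted p of 0.386. These comparisons share the 12 saline mice in room air with those of hyperoxia and of strain above.

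Among the 24 mice in hyperoxia, ATG was compared with saline. Of 31 members tested 5 were higher with ATG and none was lower, where 5.47% of all 15860 genes tested were called (3.89% higher and 1.58% lower). Unadjusted, 7 members and 21.9% of genes had a p under 0.05. The median was 0.26 over the members and 0.05 over all genes. Over all genes called, 617 of 868 were higher as deposited and 350 of 768 after quantile normalization. The members were Cxcl12 (0.67, SE 0.11, adjusted p = 0.00529), Cxcl10 (1.10, SE 0.29, adjusted p = 0.0335), Ccl8 (1.00, SE 0.28, adjusted p = 0.0451), Cxcl15 (0.50, SE 0.14, adjusted p = 0.0383) and Cxcl16 (0.29, SE 0.07, adjusted p = 0.0243).

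Cxcl12 alone was called under every alternative and with any mouse left out. After median ratio scaling it was the only member called, and leaving out any of 14 of the 24 mice lowered the members called to 2 or 3. On their own, the calls of Ccl8, Cxcl15 and Cxcl10 were lost without any of 18, 16 and 11 mice (adjusted p up to 0.0886, 0.0758 and 0.0674). Ccl8 (MCP-2) had 5.62 to 76.5 (median 12.8) FPKM with saline and 12.4 to 100.2 (median 28.9) with ATG, and Cxcl16 had 58.9 to 104 (median 79.8) and 71.3 to 145 (median 99.5). For Ccl8, Cxcl16 and the other called members the ranges of the 12 mice with ATG and the 12 with saline overlapped. Of 8 alveolar macrophage markers 7 were tested and 4 were lower with ATG (sums 308 to 1803 with saline and 122 to 1662 with ATG), of 8 monocyte and inflammatory macrophage markers 1 was higher and 2 were lower (sums 182 to 1048 and 127 to 431), 1 of 3 endothelial and the 1 tested eosinophil marker were lower, none of 8 neutrophil markers was called by limma (1 at an unadjusted p under 0.05), and their part was not tested.

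Whether ATG acted differently in hyperoxia and in room air was tested over all 48 mice. Of 31 members 3 had a higher and 1 a lower difference in hyperoxia, where 2.77% of all 16994 genes tested were called (1.56% higher and 1.21% lower). A p under 0.05 before adjustment was found for 9 members and 18.8% of genes. Of the genes called in this comparison, 265 of 470 were higher as deposited and 182 of 524 after quantile normalization, and the median was 0.39 against 0.04 over all genes. Cxcl10 differed by 1.59 (SE 0.36, adjusted p = 0.0157), from differences between ATG and saline of 1.10 in hyperoxia and -0.49 in room air. Cxcl12 differed by 0.53 (SE 0.13, adjusted p = 0.0253), from 0.67 and 0.13. Cxcl15 differed by 0.61 (SE 0.17, adjusted p = 0.0382), and Ccl6 by -0.91 (SE 0.26, adjusted p = 0.0455), where the differences of Ccl6 between ATG and saline were -0.24 in hyperoxia and 0.67 in room air, neither of which passed alone. The calls of Cxcl15 and Ccl6 were lost without any of 20 and 29 of the 48 mice, with adjusted p up to 0.0662 and 0.0780. Leaving out any of 14 of the 48 mice, mice 19 and 33 among them, lowered the members called to 2 (2.31% of genes without mouse 19 and 3.14% without mouse 33). Without C3HM mice 1 and 3, Ccl6 missed the threshold (adjusted p = 0.0965). In the same test 6 of 8 alveolar macrophage, 2 of 8 monocyte and inflammatory macrophage, 1 of 3 endothelial and the 1 tested eosinophil marker were lower, and their part was not tested. The median of Cxcl10 in room air was 3.14 FPKM with saline and 1.48 with ATG.

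The strains were then taken apart, a split chosen after seeing the data. In C3H mice in hyperoxia 5 members were higher with ATG and none lower, where 2.65% of all 15860 genes tested were called (1.60% higher and 1.05% lower). Before adjustment, 16 members and 16.7% of genes stood under 0.05. The median was 0.91 against 0.03 over all genes, and over all genes called, 253 of 420 were higher as deposited and 210 of 477 after quantile normalization. Leaving out any of 9 mice lowered the members called in C3H to 3. In C57B no member passed in limma, where 0.864% of all 15860 genes tested were called (0.687% higher and 0.177% lower). At an unadjusted p under 0.05 stood 5 members and 19.4% of genes, with medians of -0.30 and 0.07. Without mouse 19, 3 genes (0.0190%) and no member were called in C57B, and the members' median was -0.18. Over all genes called, 109 of 137 were higher as deposited and 55 of 92 after quantile normalization. The test of the difference between strains passed for Cxcl12 alone, where 0.416% of all 15860 genes tested were called (0.328% higher and 0.0883% lower). Unadjusted, 18 members and 13.3% of genes had a p under 0.05, with medians of 1.26 over the members and -0.05 over all genes.

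In C3H, Cxcl12 with ATG had 117, 89.8 and 112 FPKM in males and 113, 80.3 and 123 in females in hyperoxia. All 6 values lay above the 6 saline mice in hyperoxia (28.0 to 46.8) and within or above the range of saline mice in room air (71.9 to 94.3). In C57B it had 41.4, 36.2 and 54.9 in males and 48.5, 34.6 and 34.7 in females, which overlaps the saline range of 29.0 to 61.2. The change with ATG was 1.48 (SE 0.16, adjusted p = 3.44e-05) in C3H and -0.15 (SE 0.16, adjusted p = 0.642) in C57B, and they differed by 1.63 (SE 0.23, adjusted p = 0.00209). Summed FPKM of 3 endothelial markers was 1119 to 1504 in saline and 796 to 1365 in ATG treated C3H mice in hyperoxia, where 1 of the 3, Pecam1, was lower with ATG. Fibroblast markers summed to 97.6 to 184 and 108 to 170.4 with none called by limma (0 at an unadjusted p under 0.05).

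The other 4 members called in C3H were Ccl2 (3.26, SE 0.83, adjusted p = 0.0399), Ccl7 (2.88, SE 0.70, adjusted p = 0.0294), Cxcl10 (2.04, SE 0.41, adjusted p = 0.0110) and Cxcl16 (0.48, SE 0.10, adjusted p = 0.0124). With ATG, Ccl2 had 267, 120.4 and 246 FPKM in C3HM and 301, 147 and 257 in C3HF, all above the 5 saline C3H mice other than mouse 33, which had 3.09 to 31.6. In C57B with ATG, Ccl2 had 72.6, 40.3 and 35.7 in males and 69.5, 98.1 and 333 in females, within the saline range of 15.1 to 989 FPKM, and its change was -1.03 (SE 0.83, adjusted p = 0.518). The call of Ccl2 in C3H was lost without any of 12 mice and that of Ccl7 without any of 9 (adjusted p up to 0.123 and 0.0946).

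Cxcl5 with ATG had 122, 110.0 and 124 FPKM in C3HM and 64.5, 20.1 and 28.5 in C3HF, against 16.8, 17.7 and 8.96 and 6.09, 4.26 and 79.8 with saline. The C3HM mice with ATG were all above the C3HM mice with saline, but mouse 33 was at 79.8, and the change of 2.13 (SE 0.76, adjusted p = 0.147) did not pass. Cxcl1 with ATG had 309.6, 94.0 and 266 FPKM in C3HM and 237, 133 and 154 in C3HF, and its change of 2.99 (SE 0.96, adjusted p = 0.103) did not pass either. Without mouse 33, 12 members were higher with ATG in C3H, where 5.45% of genes were called, with changes of 3.75 for Cxcl1 and 2.75 for Cxcl5, and Ccl3, Ccl8, Ccl9, Ccl12 and Cxcl14 joined as well. The strains then differed in their change with ATG for 7 members, where 1.91% of genes were called, by 5.52 for Cxcl1, 5.04 for Ccl2, 4.46 for Ccl7, 4.25 for Cxcl5, 2.73 for Ccl3, 1.66 for Cxcl12 and 1.53 for Cxcl14. In C57B the ATG treated mice had 8.09 to 68.6 FPKM of Cxcl1 against 2.79 to 501 with saline.

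In C3H mice in hyperoxia 6 of 7 alveolar macrophage markers tested were lower with ATG, with sums of 308 to 729 (median 447) in saline and 122 to 471 (median 154) in ATG treated mice, and none of 8 neutrophil markers was called by limma (0 at an unadjusted p under 0.05), with sums of 186 to 6313 (median 211) and 163 to 2922 (median 758). In C57B mice in hyperoxia no neutrophil marker was called by limma either (5 of 8 at an unadjusted p under 0.05). Their sums were 184 to 4904 (median 3098) with saline and 241 to 1105 (median 394) with ATG. None of 7 alveolar macrophage markers tested was called in C57B, with sums of 766 to 1803 and 702 to 1662. The part of all these markers in the results on ligands was not tested.

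**Figure D4:**
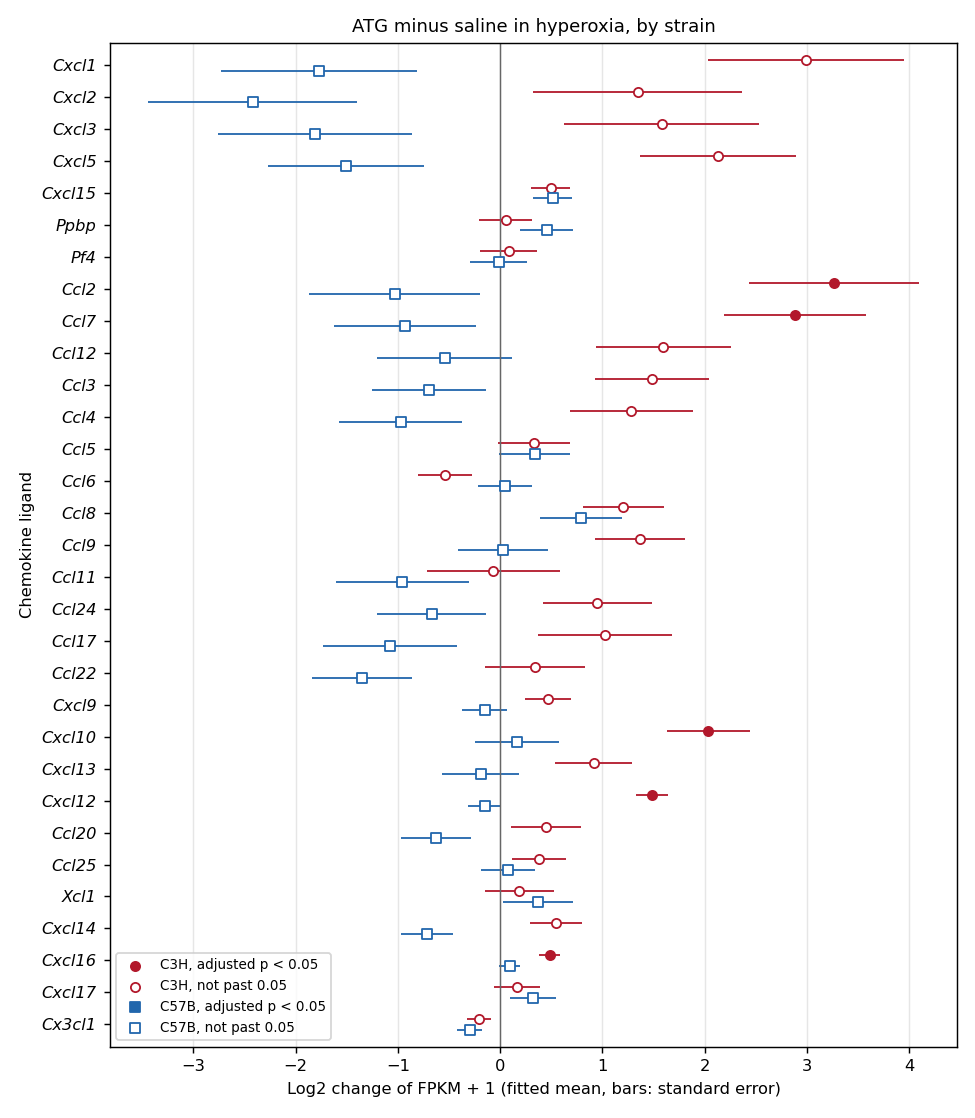
Change of each of 31 chemokine ligands with ATG against saline in hyperoxia, as the difference of log2(FPKM + 1) with its standard error, for C3H (red circles) and C57B (blue squares), 6 mice in each group. Filled marks passed an adjusted p of 0.05. The 5 filled marks are all of C3H, and Cxcl12 stands at 1.48 in C3H and -0.15 in C57B with the strains' error bars far apart.

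Of 23 chemokine receptor genes listed, 17 passed the filter in the comparison of hyperoxia with room air, 5 of them rose and 9 fell. Over all genes tested, 60.1% were called there (31.8% higher and 28.3% lower). The receptors of the ligands that rose most moved up in part. Ccr1, a receptor of Ccl3 and other CC ligands, rose by 2.30 (SE 0.36, adjusted p = 1.43e-05), and the neutrophil receptors Cxcr2 and Cxcr1 rose by 1.59 and 1.55 on the log2 scale. Ccr2, the receptor of Ccl2, Ccl7 and Ccl12, did not pass (0.21, SE 0.31, adjusted p = 0.589). The receptors of Cxcl12 moved in opposite directions, with Ackr3 higher by 1.79 (SE 0.13, adjusted p = 4.27e-10), and Cxcr4 lower at -1.56 (SE 0.12, adjusted p = 1.43e-09). Ccr6, the receptor of Ccl20, fell by 0.35, Cx3cr1, the receptor of Cx3cl1, by 0.77, Cxcr6, the receptor of Cxcl16, by 0.82, and Xcr1, the receptor of Xcl1, by 0.47. Cxcr5, Ccr7, Ccrl2 and the scavenging receptor Ackr4 also fell, by 0.89, 0.71, 0.76 and 2.09.

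Within strains, 3 receptors rose and 5 fell in C3H, where 25.3% of all genes tested were called higher and 12.5% lower. In C57B 6 rose and 9 fell, where 25.5% of all genes were higher and 30.0% lower. The test of the difference passed for 4 higher and 1 lower (8.71% and 2.81% of all genes). Between strains, 4 receptors were higher and 2 lower in C3H in hyperoxia (16.1% and 11.1% of all genes). In room air 3 were higher and 7 lower of 16 tested (3.92% and 7.87% of all genes). No receptor passed in limma for the interaction of sex with hyperoxia (4 at an unadjusted p under 0.05), for sex in room air (4) or for ATG in room air (3). With ATG in hyperoxia 1 receptor fell, the scavenger of inflammatory CC chemokines Ackr2 (-0.72, SE 0.17, adjusted p = 0.0203), and it was also the only one in the test of ATG between airs (-0.99, SE 0.20, adjusted p = 0.00660). Over all genes, 5.47% and 2.77% were called in these tests.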

How the data were processed

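Whole lung RNA of 48 mice was sequenced, with 1 library per mouse. The authors deposited FPKM per gene, and the submitters' processing notes name GSNAP, SAMtools, Cufflinks and mm10. No counts were used, so the depth per library is unknown. The labels call the library preparation directional, while the kit named in the study's methods is given without a strand step. Whether counting used strand is not given in the sources used here. This bears on Cxcl16, Cxcl10, Ccl25, Xcl1 and Cxcl11, whose exons overlap other genes on the opposite strand. Of all genes, 1 with an impossibly high value was removed.

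The mice were grouped by their sample labels. Members were matched by symbol, and the members, gene lists and comparisons were chosen with earlier results of these data known. Genes with at least 1 FPKM in at least 3 of the mice fitted were tested on log2(FPKM + 1) with limma 3.58.1 in R 4.3.3 (group means, empirical Bayes with trend, Benjamini-Hochberg adjustment over all genes, threshold 0.05), each test two-sided. Saline mice were fitted as 8 groups for hyperoxia and as 4 groups in room air, ATG within each air as 8 groups, and ATG between airs as 16 groups. Averages over strain or sex weigh groups equally, and the spread of each gene is shared over all groups of its fit. P-values measure the spread between mice of a group, of which no source says how they were raised. Members past the threshold are named with full statistics for at most the 10 with the largest change per comparison, and others by count or by the values given.

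Alternatives were a pseudocount of 0.1, a filter at 0.1 FPKM or none, quantile normalization, median ratio scaling, no trend, all 48 mice fitted together, each mouse left out, and C3HM mice 1 and 3 left out. ATG by strain was added after seeing the data. The procedure was tested on simulated data with independent noise and the same spread of a gene in every group. Those data do not hold the wider spread of the ligands in hyperoxia or mice such as 19 and 33. Gene positions and shared 30-base sequences came from GENCODE M21, promoters from RefSeq (GRCm38.p6). Tables and plots were made with Python 3.11.15, pandas 2.3.3, numpy 2.4.6 and matplotlib 3.10.9. The values of 1 receptor gene are not reported here.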

Additional observations from a re-analysis of the deposited data

Results flagged for a closer look

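For 4 of 30 ligands tested the change with hyperoxia in saline mice differed between the strains by the interaction test in limma. In the same test 11.5% of all 16321 genes were called. The call of Cxcl13 (adjusted p = 0.0495) was lost without any of 18 of the 24 mice. Cxcl15 differed by 2.13 (C3H -0.07, C57B -2.21), Cxcl13 by -1.38 (0.88 and 2.27), Cxcl12 by -0.95 (-1.15 and -0.21) and Cx3cl1 by 0.75 (-0.09 and -0.84), all on the log2(FPKM + 1) scale.

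The difference between ATG and saline was not alike in hyperoxia and in room air for 4 of 31 ligands. In the same test 2.77% of all 16994 genes were called. The calls of Cxcl15 and Ccl6 were lost without any of 20 and 29 of the 48 mice. Cxcl10 differed by 1.59 (1.10 in hyperoxia, -0.49 in room air), Cxcl15 by 0.61 (0.50 and -0.10), Cxcl12 by 0.53 (0.67 and 0.13) and Ccl6 by -0.91 (-0.24 and 0.67).

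Between the strains, the change with ATG in hyperoxia differed for Cxcl12 by 1.63 (C3H 1.48, C57B -0.15), in a comparison added after seeing the data. In that test 0.416% of all 15860 genes were called.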

How the results depend on the processing

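No ligand change that passed the threshold in the main fit turned its direction under any alternative run. Changes that did not pass were not followed in this way. Members called moved from 4 to 2 for strain in the change with hyperoxia without C3HM mice 1 and 3 (1358 of 16213 genes called). For sex in room air with all 48 mice fitted together they moved from 0 to 2 of 31. There 1915 of 16994 genes were called, against 104 of 15546 in the main fit. For ATG in hyperoxia they moved from 5 to 3 with a filter at 0.1 FPKM (697 of 20900 genes) or quantile normalization (768 of 15860). They moved to 2 with no filter (597 of 25297 genes) and to 1 after median ratio scaling (639 of 15860). For ATG between the airs they moved from 4 to 2 with either other filter (368 of 22920 genes at 0.1 FPKM, 313 of 27106 with none). For ATG in hyperoxia by strain, they moved from 5 to 3 in C3H without a filter (363 of 25297 genes). With all 48 mice fitted together they moved from 0 to 1 in C57B (lower with ATG) and from 1 to 6 for the difference between strains. In C57B 457 of 16994 genes were then called, against 137 of 15860 in the main fit. For the difference between strains 234 of 16994 were called, against 66 of 15860.

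With 1 mouse left out, members called ranged from 25 to 26 for hyperoxia, 14 to 19 in C3H, 24 to 25 in C57B, 3 to 6 for strain in that change, 0 to 9 for sex in that change (9 without mouse 19), 7 to 15 for strain in hyperoxia (15 without mouse 33), 7 to 10 for strain and 0 to 3 for sex in room air (both highest without mouse 2), 0 to 0 for ATG in room air, 2 to 6 for ATG in hyperoxia, 2 to 5 for ATG between airs, 3 to 12 for ATG in C3H, 0 to 0 in C57B and 1 to 7 for their difference (12 and 7 without mouse 33). The cause of these moves was not tested. The share of all genes called was recorded only for the fits without mouse 19 or mouse 33.

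Quantile normalization took the median of all genes from 0.15 to -0.01 for strain and from 0.14 to 0.01 for sex in the change with hyperoxia, from -0.12 to -0.00 for sex in room air, and from -0.10 to 0.02 for strain in room air. Depth is unknown, and members below 1 FPKM are the least certain. No paired analysis was possible because each mouse has a number of its own.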
